A study of Mus musculus with 9 samples.

Results

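The neurotrophin genes described here are Bdnf and Ntf3, which encode the secreted factors BDNF and neurotrophin-3, Ntrk2, Ntrk3 and Ngfr, which encode the receptors TrkB, TrkC and p75NTR, and Vgf, a neurotrophin-inducible gene whose product is cut into secreted peptides. They were taken by symbol, through the NCBI gene ID of each row, as 6 of the 36172 features of the deposited count table, and all 6 passed the filter on low counts that left 15144 genes for testing. The tissue was medial prefrontal cortex (mPFC) of DBA2/J mice, profiled by RNA sequencing of total RNA in 3 groups of 3 libraries. Non-stressed mice received saline (NS), socially defeated mice (5 days) of a subtype named SA:ANH received vehicle (SA:ANH-vehicle, called vehicle here), and defeated mice of that subtype received an inhibitor of the histone demethylase KDM5C (SA:ANH-KDM5Ci, called KDM5Ci here). The sources used here did not give the meaning of SA:ANH, the compound, its dose or the sex and age of the mice, and the treatment labels name saline where the titles name vehicle. The labels do not say whether each library stands for 1 mouse, so a p-value reflects the spread among these libraries alone, and that spread may be technical. There was no group of non-stressed mice given the inhibitor.

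Neurotrophins are made as proproteins, which intracellular and extracellular proteases cut to the mature form. Mature BDNF binds TrkB and neurotrophin-3 binds TrkC, receptor tyrosine kinases that signal through ERK, PI3K and phospholipase C, whereas p75NTR binds all neurotrophins and, with sortilin, their proforms. In cortex, Bdnf is transcribed mainly in excitatory neurons from several promoters that respond to activity, truncated TrkB without a kinase domain is abundant in astrocytes, and p75NTR is scarce in adult cortical neurons and found on basal forebrain cholinergic fibres.

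Bdnf (gene ID 12064) lies on the plus strand of chromosome 2 from 109674700 to 109727043 in RefSeq's annotation of GRCm38.p6 (mm10). Ntf3 (18205) lies on the minus strand of chromosome 6 from 126101412 to 126166772, and Vgf (381677) on the plus strand of chromosome 5 from 137025301 to 137033351. Of the receptor genes, Ntrk2 (18212) lies on the plus strand of chromosome 13 from 58806472 to 59133970, Ntrk3 (18213) on the minus strand of chromosome 7 from 78179986 to 78581034, and Ngfr (18053) on the minus strand of chromosome 11 from 95568818 to 95587698. A count here covers the whole gene, so the 12 RefSeq transcripts of Bdnf, and the full-length and truncated receptors among the 9 transcripts of Ntrk2 and the 13 of Ntrk3, cannot be told apart. The library kit keeps strand, but the sources used here do not say whether counting used it. In the GENCODE M21 annotation an antisense gene touches an exon of Bdnf (Gm45346, 1892 shared bases) and of Ntrk2 (4930415C11Rik, 29198 shared bases), and Gm39038 overlaps an exon of Ntrk3 on the same strand, so reads of these pairs may be mixed.

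One regulatory window is printed because the Bdnf count sums transcripts from several starts and this is the start best known for its response to activity and calcium. RefSeq's promoter table holds 7 windows of Bdnf, 2 of Ntf3 and 1 each of Ntrk2 and Ngfr, read here over the 250 bases before each start. It holds no window of Vgf or Ntrk3, so the promoters of these genes were not searched. The third Bdnf window, chr2:109692186-109692435 on the plus strand of GRCm38.p6, precedes the exon usually numbered IV, and capitals mark CGTCA, the core of the cAMP response element.
Bdnf window 3: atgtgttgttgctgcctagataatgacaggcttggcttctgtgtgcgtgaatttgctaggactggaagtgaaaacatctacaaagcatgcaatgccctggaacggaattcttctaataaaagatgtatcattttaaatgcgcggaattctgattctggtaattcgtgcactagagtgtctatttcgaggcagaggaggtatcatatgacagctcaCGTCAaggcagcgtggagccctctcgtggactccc
It was the only 1 of the 11 windows of Bdnf, Ntf3, Ntrk2 and Ngfr with this core on either strand, against 17.8% of all 32851 windows of that length. None of the 11 held the full element TGACGTCA, which was in 1.55% of all windows, or the glucocorticoid response element, searched as a palindrome with degenerate positions and present in 0.387%. A match is a description of the letters, and the counts do not say which start was used.

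The library totals ran from 29845097 to 42196472 counts, with TMM scaling factors from 0.987 to 1.01 and a common biological coefficient of variation of 6.95% over all genes. The 12 excitatory neuron markers summed to between 2512 and 2584 CPM (each count relative to its scaled library size) in NS, above the 2390 to 2503 CPM of vehicle and the 2412 to 2506 CPM of KDM5Ci. The 11 astrocyte markers summed to between 4588 and 5373 CPM, and the 3 groups overlapped. The 10 interneuron markers summed to between 1383 and 1472 CPM in KDM5Ci, 1321 and 1351 CPM in vehicle, and 1328 and 1431 CPM in NS, and the 7 markers of oligodendrocyte precursors to between 265 and 285 CPM, 226 and 248 CPM, and 231 and 270 CPM in the same order. Other tissue markers differed more between libraries. The 11 striatal neuron markers summed to 884, 452 and 642 CPM in KDM5Ci replicates 1 to 3 and to between 365 and 525 CPM in the other libraries, and the 10 oligodendrocyte markers to between 2896 and 3793 CPM in KDM5Ci and between 1575 and 3231 CPM elsewhere. The 12 meningeal and fibroblast markers summed to between 90.5 and 101 CPM in KDM5Ci against 134 to 214 CPM in vehicle and 117 to 188 CPM in NS. No marker on these lists was at 0 in all libraries. In bulk tissue, fewer cells of a type and less RNA per cell cannot be told apart.

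Compared per length of exon, Vgf had the highest level, with a mean of 98.0 RPKM over the 9 libraries (81.9 to 123). Ntrk2 followed at 24.4 RPKM (22.2 to 26.9), then Bdnf at 6.20 RPKM (4.98 to 7.02) and Ntrk3 at 3.07 RPKM (2.85 to 3.23). The ranges of these 4 genes did not overlap. Ntf3 at 0.505 RPKM (0.364 to 0.604) and Ngfr at 0.276 RPKM (0.217 to 0.417) were lowest and overlapped each other. The order was the same with the length of the longest transcript in place of all exons, although the level of Ntrk2 then became 53.8 RPKM, as its longest transcript covers 8744 of its 19292 exonic bases. Ntrk2 was thus the higher of the 2 Trk receptor genes and Bdnf the higher of the 2 ligand genes.

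None of the 6 genes passed the test in any of the 3 comparisons (quasi-likelihood F-tests in edgeR, adjusted by the Benjamini-Hochberg method over 15144 genes at 0.05). After defeat with vehicle, 0 of 6 were called against NS, where 0.0132% of all genes were called, and 0 of 6 had an unadjusted p under 0.05 (8.21% of all genes). With the inhibitor against vehicle, 0 of 6 were called against a background of 2.51%, and 1 of 6, Vgf, had an unadjusted p under 0.05, as did 14.2% of all genes, a count near that background. Between KDM5Ci and NS, 0 of 6 were called against a background of 3.97%, and 0 had an unadjusted p under 0.05 (18.5% of all genes). DESeq2 and limma-voom also called 0 of the 6 in each comparison. The 3 comparisons share libraries in pairs and are not independent of one another.

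**Figure D1:**
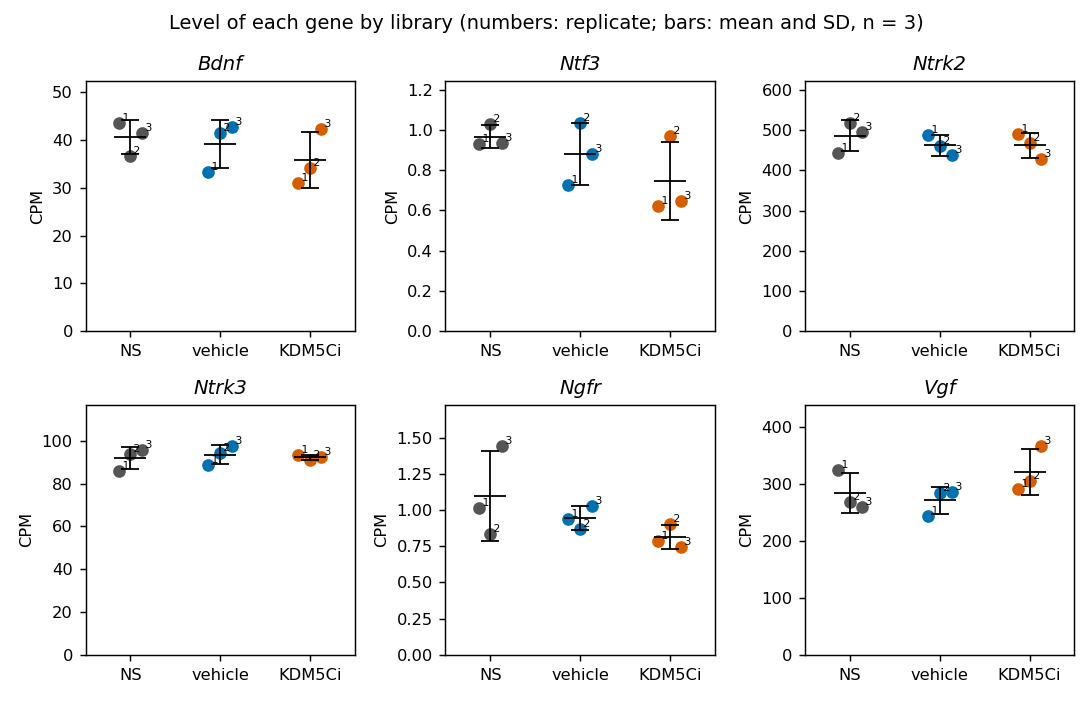
Level of the 6 genes in each library in CPM (vertical axes start at 0). Points are libraries, numbered by replicate, and the black marks are the mean and SD of 3 libraries. The groups overlap in every panel and comparison except Vgf between vehicle and KDM5Ci, where the highest vehicle library is at 285 CPM and the lowest KDM5Ci library at 290 CPM.

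Bdnf, the ligand of TrkB, was at 43.6, 36.7 and 41.5 CPM in the 3 NS libraries, 33.4, 41.5 and 42.7 CPM in the vehicle libraries, and 31.0, 34.2 and 42.4 CPM in the KDM5Ci libraries. Every group held a library above 42 CPM and the groups overlapped, with vehicle replicate 1 and KDM5Ci replicates 1 and 2 low. The group means were 40.6 ± 3.52, 39.2 ± 5.08 and 35.9 ± 5.89 CPM (SD, n = 3). The fitted log2 fold change was -0.05 (SE 0.12) for vehicle against NS, with a 95% interval of -0.33 to 0.22. It was -0.12 (SE 0.12, interval -0.40 to 0.16) for KDM5Ci against vehicle and -0.17 (SE 0.13, interval -0.45 to 0.10) for KDM5Ci against NS, with adjusted p of 0.960, 0.736 and 0.504 in that order of comparisons in the edgeR fit. Without KDM5Ci replicate 1 these last 2 values were -0.03 and -0.08, and without KDM5Ci replicate 3 they were -0.26 and -0.32, so their size rested on single libraries. The excitatory neuron marker sum was also lower in vehicle and KDM5Ci than in NS, with 0 of its 12 genes called in any comparison of the edgeR fit. Against NS, however, 7 of the 12 had positive values in vehicle and 7 in KDM5Ci. Their median log2 fold changes were 0.0046 and 0.04. The part of these markers in the Bdnf values was not tested. On the linear scale the data allow a Bdnf level after the inhibitor between 0.759 and 1.11 times that with vehicle. Counting error was 2.72% of the mean count of 1351, well below the spread between libraries of 8.66% to 16.4% within a group.

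Ntf3, the ligand of TrkC, was detected at 19 to 37 rounded counts per library, so counting alone gives an error of 18.2%. Its levels were 0.933, 1.03 and 0.937 CPM in NS, 0.727, 1.04 and 0.883 CPM in vehicle, and 0.623, 0.970 and 0.647 CPM in KDM5Ci. KDM5Ci replicates 1 and 3 were the lowest of all 9 libraries, and KDM5Ci replicate 2 lay within the range of the other groups. The fitted log2 difference between KDM5Ci and NS was -0.38 (SE 0.24, interval -0.90 to 0.14) with an adjusted p of 0.431 in the edgeR fit. A difference between 0.534-fold and 1.10-fold could not be resolved at this depth.

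Ntrk2, the TrkB gene, was the most precisely counted gene of the 6, at 14522 to 20838 counts per library and a counting error of 0.780%. It was at 444, 519 and 496 CPM in NS, 488, 460 and 438 CPM in vehicle, and 489, 469 and 427 CPM in KDM5Ci. The libraries of all 3 groups were interleaved, and the means of vehicle and KDM5Ci were both 462 CPM (SD 25.4 and 31.7, n = 3). The fitted ratio of KDM5Ci to vehicle was 1.00 with a 95% interval of 0.904 to 1.11. The sign of this ratio on the log2 scale turned from -3e-04 to 0.0056 with median-ratio size factors. Against NS both stressed groups had a log2 difference of -0.07 (SE 0.07), with an adjusted p of 0.838 for vehicle and 0.606 for KDM5Ci in the edgeR fit. The astrocyte marker sums likewise overlapped between the groups. They were 4799, 5373 and 5022 CPM in NS, 5123, 4880 and 4588 CPM in vehicle, and 5288, 5084 and 4682 CPM in KDM5Ci. Within each group the libraries had the same order in this sum as in Ntrk2. The part of these markers in the Ntrk2 values was not tested.

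Ntrk3, the TrkC gene, varied least. It was at 86.1, 93.9 and 95.7 CPM in NS, 88.6, 94.5 and 97.4 CPM in vehicle, and 93.4, 91.2 and 92.7 CPM in KDM5Ci, and its highest library was 1.13 times its lowest. Only 19.3% of the genes tested had a lower gene-wise coefficient of variation than its 5.19%. The ratio of KDM5Ci to vehicle was 0.989 (95% interval 0.912 to 1.07, adjusted p = 0.928), and all 3 adjusted p in the edgeR fit were 0.928 or above. The direction of its log2 difference between KDM5Ci and NS, 0.01, turned to -0.0047 without TMM scaling.

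Ngfr, which encodes the shared receptor p75NTR, was at 1.02, 0.836 and 1.44 CPM in NS, 0.937, 0.868 and 1.03 CPM in vehicle, and 0.788, 0.905 and 0.747 CPM in KDM5Ci. NS replicate 3 stood highest, and the other 8 libraries lay between 0.747 and 1.03 CPM. The log2 difference between KDM5Ci and NS was -0.42 (SE 0.24, interval -0.94 to 0.09), with an adjusted p of 0.371 in the edgeR fit, and that between vehicle and NS was -0.20 (SE 0.23). Without NS replicate 3 these were -0.19 and 0.03, and without NS replicate 2 the former was -0.59. With 23.6 to 42.7 counts per library and a counting error of 17.5%, a fold between 0.523 and 1.06 relative to NS was not resolved for KDM5Ci. The meningeal and fibroblast marker sum was lowest in the 3 KDM5Ci libraries, where 5 of its 12 genes fell against vehicle and 2 fell against NS by the same test. Over all 15144 genes tested, 245 fell against vehicle and 320 fell against NS. Ngfr itself overlapped between the groups, with KDM5Ci replicate 2 above NS replicate 2 and vehicle replicate 2. The part of these markers in the Ngfr values was not tested. The markers listed for basal forebrain cholinergic neurons, of which 4 of 6 were tested (not Lhx8 or Gbx1), went the other way from the meningeal and fibroblast markers. For KDM5Ci against vehicle, 4 of these 4 were positive and 0 called. Their sums were 9.78, 2.88 and 5.33 CPM in KDM5Ci and 2.35 to 4.89 CPM in the other libraries. The striatal neuron marker sums were also highest in KDM5Ci replicates 1 and 3, at 884 and 642 CPM. Which cells these 4 genes came from was not tested.

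Vgf, the neurotrophin-inducible secretory gene, was at 323, 268 and 260 CPM in NS, 243, 284 and 285 CPM in vehicle, and 290, 305 and 365 CPM in KDM5Ci. All 3 KDM5Ci libraries were above all 3 vehicle libraries, by a gap of a few CPM, while NS replicate 1 lay above KDM5Ci replicates 1 and 2. This was the 1 non-overlap among the 6 genes for KDM5Ci against vehicle, where 18.9% of all genes did not overlap. There was 0 among the 6 for vehicle against NS (15.1% of all genes) and 0 for KDM5Ci against NS (23.5% of all genes). The level with the inhibitor was 1.18 times that with vehicle (95% interval 1.01 to 1.39), a log2 fold change of 0.24 (SE 0.11). The unadjusted p was 0.0449 and the adjusted p 0.333 in the edgeR fit, and the two-sided exact permutation test gave 0.1, the smallest value that 3 against 3 libraries allow. The difference was therefore positive in every KDM5Ci library relative to every vehicle library but did not pass the adjustment over all genes. The interneuron marker sum likewise did not overlap between KDM5Ci and vehicle, with 9 of its 10 genes positive, 0 called and a median log2 fold change of 0.12. Neither did that of oligodendrocyte precursors, with 4 of 7 positive and 2 that rose in the edgeR fit. Over all 15144 genes tested, 135 rose in this comparison. The part of these markers in the Vgf values was not tested. Leaving out KDM5Ci replicate 3 lowered the Vgf log2 fold change against vehicle to 0.14 and against NS to 0.07. Against NS the log2 difference was 0.18 (SE 0.11, interval -0.06 to 0.41, adjusted p = 0.416 in the edgeR fit).

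**Figure D2:**
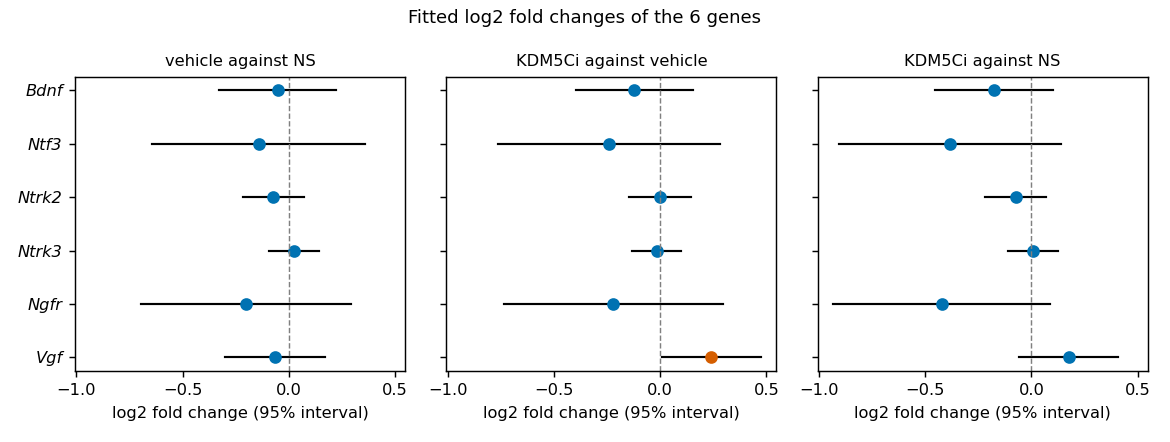
Fitted log2 fold changes (horizontal axes) of the 6 genes in the 3 comparisons, from the edgeR fit. Bars are 95% intervals, an orange point marks groups that did not overlap and blue points groups that did. Only the interval of Vgf between KDM5Ci and vehicle, 0.0067 to 0.48, leaves out 0, before any adjustment for the number of genes, and the intervals of Ntf3 and Ngfr are the widest.

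Across the 6 genes the median log2 fold change was -0.07 for vehicle against NS, -0.07 for KDM5Ci against vehicle and -0.12 for KDM5Ci against NS. The median over all genes tested was 0.0038, 0.0032 and -3e-04. The number of the 6 with a positive value was 1, 1 and 2. Ntrk3 was the positive one after defeat, Vgf after the inhibitor, and both against NS. These counts describe values none of which passed the test. The gene-wise coefficients of variation of Bdnf, Ntf3, Ngfr and Vgf, 9.28% to 12.5%, were above the median of 6.77% over all genes, whereas those of Ntrk2 and Ntrk3, at 6.30% and 5.19%, were below it. The spread of the 2 Trk receptor genes was thus smaller than that of the ligands and of Vgf.

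Ratios between members in the same library remove what scaling adds to each, and 4 were computed with the members' values already known. The ratio of Vgf to Bdnf per exon length was 15.5, 15.2 and 13.1 in NS, 15.3, 14.3 and 13.95 in vehicle, and 19.6, 18.7 and 18.01 in KDM5Ci. All 3 KDM5Ci libraries were above the 6 others, and the NS and vehicle libraries were interleaved. The means were 14.6 ± 1.31, 14.5 ± 0.673 and 18.7 ± 0.784 (SD, n = 3), a log2 difference of 0.37 for KDM5Ci against vehicle and 0.36 against NS. The two-sided exact permutation p was 0.1 in each, the smallest possible, and 0.6 after Benjamini-Hochberg adjustment over the 12 ratio tests. Leaving out any 1 library of the groups compared gave log2 differences of 0.34 to 0.41 against vehicle and 0.29 to 0.41 against NS. Such a separation was common for Vgf: its ratio to each other gene was higher in all 3 KDM5Ci libraries than in all 3 vehicle libraries for 38.4% of 15136 genes, and than in all 3 NS libraries for 12.2%. These shares take vehicle and NS in turn, and the share for all 6 other libraries together was not computed. Vgf alone already separated KDM5Ci from vehicle. Taken 1 group at a time, separation of this ratio lies within what many other genes show as denominators. The ratios Ntrk2 to Ntrk3, with group means of 8.27, 7.75 and 7.82, Bdnf to Ntf3 and Ntrk2 to Ngfr had exact permutation p of 0.3 or more in each comparison.

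**Figure D3:**
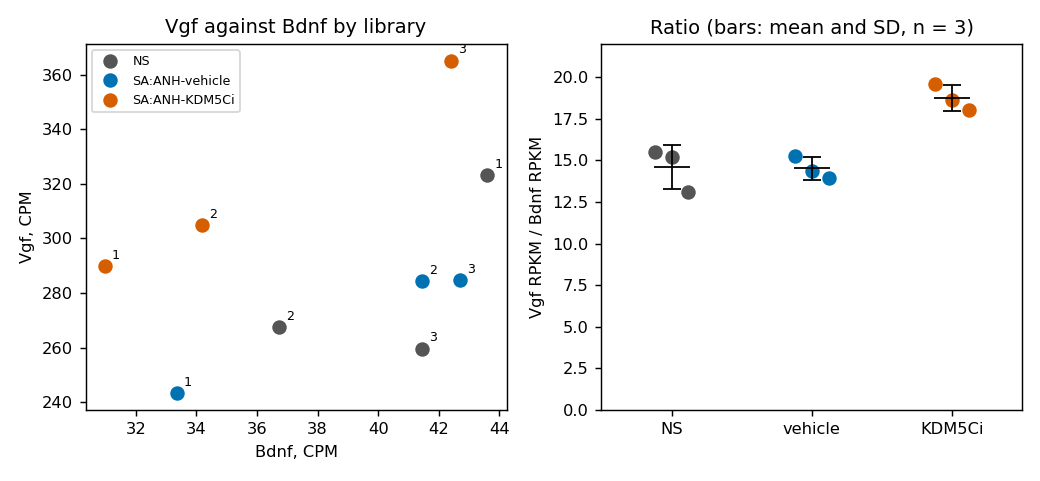
Left, Vgf against Bdnf in CPM for each library, labelled by replicate. Right, the ratio of the RPKM values of the 2 genes (vertical axis from 0), with the mean and SD of 3 libraries. The KDM5Ci libraries lie between 18.01 and 19.6 and the other 6 between 13.1 and 15.5.

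Vgf and Bdnf are both induced by neuronal activity, and the sum of the 22 activity-induced genes listed for this purpose varied most in NS. It was 1780, 861 and 836 CPM in NS, 1349, 947 and 1127 CPM in vehicle, and 1113, 1176 and 1090 CPM in KDM5Ci. NS replicate 1 stood apart, with Fos at 45.7 CPM against 8.19 and 8.43 CPM in NS replicates 2 and 3, and it also had the highest Vgf and Bdnf levels of its group. Vehicle replicate 1 went the other way. It had the next highest sum and Fos at 29.7 CPM, but the lowest Vgf of all 9 libraries (243 CPM). Its Bdnf, at 33.4 CPM, was the lowest of its group. Without NS replicate 1 the log2 difference of Vgf between vehicle and NS turned from -0.07 to 0.04 and that of Bdnf from -0.05 to 0.0051. The KDM5Ci libraries did not stand above vehicle in the activity sum. Of the 22 genes, 1 rose with KDM5Ci against vehicle, Dusp5, which encodes a nuclear phosphatase of ERK, by 1.07 on the log2 scale (adjusted p = 0.0104 in the edgeR fit). That is 4.55% called against 2.51% of all genes. In the same fit 3 of the 22 had an unadjusted p under 0.05 (14.2% of all genes). Dusp5 was at 2.74, 1.65 and 2.80 CPM in vehicle and 5.05, 5.37 and 4.78 CPM in KDM5Ci, and it remained called against vehicle when any 1 of the 9 libraries was left out. Against NS, Dusp5 rose by 1.02 and Homer1, a postsynaptic scaffold gene, by 0.37 on the log2 scale (adjusted p 0.0119 and 0.0145 in the edgeR fit), whereas 20 of the 22 did not pass. This is 9.09% called against 3.97% of all genes, and 5 of the 22 had an unadjusted p under 0.05 in that fit (18.5% of all genes). Dusp5 lost its call against NS without NS replicate 2 (adjusted p 0.0576) or NS replicate 3 (0.0636), and Homer1 without KDM5Ci replicate 3 (0.0560).

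The wider pathway was followed through 9 lists of 133 genes, of which 128 were tested. After defeat with vehicle, 0 of the 128 passed the test in the edgeR fit or with DESeq2 or limma-voom, 12 had an unadjusted p under 0.05 in the edgeR fit, near the 8.21% of all genes, and the median log2 fold change was -0.0097. With KDM5Ci against vehicle, 3 rose, 0 fell and 125 did not pass, which is 2.34% called against the background of 2.51%, with a median of 0.0169. Between KDM5Ci and NS, 2 rose, 1 fell and 125 did not pass, again 2.34% against a background of 3.97%, with a median of 0.0049. The share called among pathway genes was thus close to or under that of all genes.

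Ntf5, which encodes neurotrophin-4, a further ligand of TrkB, had mean levels of 0.316, 0.256 and 0.186 CPM in NS, vehicle and KDM5Ci on 5 to 14 counts, and it did not pass in any comparison. The 13 sorting receptors and co-receptors had 0 calls in each comparison of the edgeR fit, with 4, 1 and 3 at an unadjusted p under 0.05 for vehicle against NS, KDM5Ci against vehicle and KDM5Ci against NS, where 8.21%, 14.2% and 18.5% of all genes were under it. They include Sort1 (sortilin), at 692, 669 and 664 CPM, and Kidins220, a scaffold of Trk receptors, at 370, 363 and 350 CPM. The 18 tested Trk adaptors and the 12 p75NTR signalling genes also had 0 calls in each comparison, with 1, 4 and 4 adaptors and 0 p75NTR genes at an unadjusted p under 0.05, to be read against the same shares. Crk, one of the adaptors, is listed at 0 in all 9 libraries and was not tested. It is widely expressed, so this 0 may be a failed estimate rather than a level.

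Proneurotrophin processing held 2 of the 3 calls for KDM5Ci against vehicle among its 9 tested genes, 22.2% against 2.51% of all genes. In the edgeR fit 5 of the 9 had an unadjusted p under 0.05 (14.2% of all genes). Of the 9, 8 had positive values, with a median of 0.15, and no test of the list was run. Plg encodes plasminogen, whose active form plasmin cuts proBDNF, and was at 10, 7 and 7 counts in vehicle and 20, 14.8 and 22.1 counts in KDM5Ci. Its log2 fold change was 1.38 (SE 0.30, adjusted p = 0.0266 in the edgeR fit), and the NS libraries, at 12.5 to 13 counts, lay between the groups. Plg was near the floor of detection, where 3 counts equal 0.0703 to 0.1004 CPM. Tissue plasminogen activator, Plat, was at 22.9 CPM in vehicle and 25.4 CPM in KDM5Ci (adjusted p = 0.284), and Furin, which cuts proneurotrophins inside the cell, at 32.9 and 36.5 CPM (adjusted p = 0.298, both in the edgeR fit). Against NS, Pcsk7, a further proprotein convertase, rose by 0.26, from 20.01, 19.5 and 19.9 CPM to 24.9, 23.4 and 22.7 CPM (adjusted p = 0.0348 in the edgeR fit). It was the 1 call of this list against NS, 11.1% against 3.97% of all genes. The endothelial markers went the other way from Plg, with a median log2 fold change of -0.17 for KDM5Ci against vehicle and 2 of 10 positive. Their sum was 255 to 275 CPM in vehicle and 203 to 256 CPM in KDM5Ci. In the edgeR fit 3 of the 10 fell, as did 245 of all 15144 genes. The part of these markers in the Plg values was not tested.

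Of the 12 regulators of Bdnf transcription, Atf4, a stress-responsive CREB-family factor, rose with KDM5Ci against vehicle, from 99.5, 92.8 and 97.9 CPM to 113, 118 and 135 CPM. The log2 fold change was 0.34 (SE 0.07, adjusted p = 0.0303 in the edgeR fit). That was 1 call among 12 genes, 8.33% against 2.51% of all genes. The other 11 did not pass, among them the activity-dependent factor Npas4 at 16.2 and 7.27 CPM (adjusted p = 0.518 for Npas4 in the edgeR fit). Of the 30 kinases and their partners, Mapk7, which encodes ERK5, fell against NS by 0.40 on the log2 scale, from 20.5, 17.6 and 19.6 CPM to 14.0, 15.6 and 14.1 CPM (adjusted p = 0.0154 in the edgeR fit). The vehicle libraries, at 15.8, 18 and 17.7 CPM, overlapped those of NS and lay above those of KDM5Ci. Irs2, an insulin receptor substrate, rose against NS by 0.31 (adjusted p = 0.0490 in the edgeR fit), from 33.6, 29.1 and 27.8 CPM to 39.1, 38.6 and 34.4 CPM. Calls were 6.67% of these 30 genes against NS, where 3.97% of all genes were called.

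These calls were close to the threshold. When each of the 9 libraries was left out in turn, Plg remained called in 4 fits, Atf4 in 3, Pcsk7 in 2, Mapk7 in 6 and Irs2 in 3. Leaving out vehicle replicate 2 took the call from Plg and Atf4, with adjusted p of 0.108 and 0.137, and leaving out vehicle replicate 3 did so at 0.0833 and 0.0769. Leaving out NS replicate 3 took it from Pcsk7, Mapk7 and Irs2, at 0.114, 0.0691 and 0.208, and leaving out KDM5Ci replicate 1 did so at 0.140, 0.0716 and 0.172 (all in the edgeR fit).

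**Figure D4:**
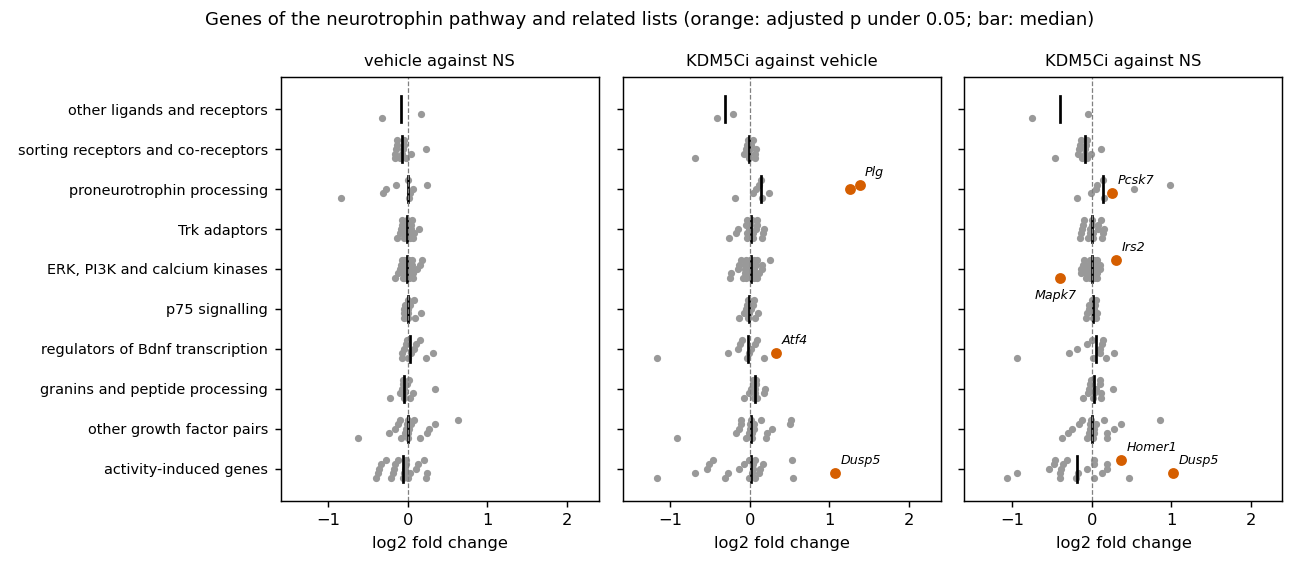
Log2 fold changes (horizontal axes) of the tested genes of the 9 pathway lists and of the activity-induced genes, by comparison. Each point is a gene, orange points passed at an adjusted p under 0.05, those described in the text are named, and the vertical bar is the list's median. Most points lie close to 0, and no gene passed for vehicle against NS.

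Granins and the enzymes that process them form the secretory group to which Vgf belongs. The list of 13 also held C3ar1 and C1qbp, which are neither granins nor such enzymes. With KDM5Ci against vehicle 0 of the 13 passed, 1 had an unadjusted p under 0.05 (14.2% of all genes) and 11 had positive values in the edgeR fit, with a median of 0.07 on the log2 scale against 0.0032 over all genes. Scg2 (secretogranin II) was at 193 CPM in vehicle and 220 CPM in KDM5Ci, with an adjusted p of 0.356, Pcsk1n (proSAAS) at 458 and 518 CPM with an adjusted p of 0.195, and Pcsk1, a convertase that cuts VGF, at 36.9 and 37.8 CPM with an adjusted p of 0.875, all in the edgeR fit. Other growth factor pairs, such as those of the GDNF, CNTF, IGF and FGF families, had 0 calls among 20 tested genes in each comparison of the edgeR fit, with 2, 2 and 4 at an unadjusted p under 0.05, against 8.21%, 14.2% and 18.5% of all genes.

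Because no member passed the test, the genes most like Bdnf were sought by the smallest root mean square difference in gene-centred log2 CPM over the 9 libraries. Among 15102 genes with a symbol these were Mettl5 (0.0603), Rhpn1 (0.0660) and Clba1 (0.0740), against a median of 0.208 over all genes. With KDM5Ci against vehicle their log2 fold changes were -0.11, -0.11 and -0.02, and none passed the test in any comparison. This likeness describes 9 libraries that share groups and scaling.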

How the data were processed

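The authors deposited 1 table of expected counts for each gene (15.7% of the values above 0 were whole within 1e-06). Per the submitters' processing notes, reads were handled with Trimmomatic 0.32, TopHat2 2.0.13 and Bowtie2 2.2.3 on mm10. The sources used here give neither the counting tool nor its use of strand. Columns were matched to samples by title, and 0 columns belonged to other samples.

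Counts were rounded, filtered with filterByExpr, which left 15144 genes, and scaled by TMM. Groups were compared in 1 fit of 9 libraries with edgeR 4.0.16 (R 4.3.3), its quasi-likelihood test with robust moderation and Benjamini-Hochberg adjustment at 0.05, tested on simulated data. RPKM used exon lengths of GENCODE M21. Symbols came from RefSeq's GRCm38.p6 table, which matched 32947 IDs. Unmatched IDs held 0.265% of counts.

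The members, lists and tests were chosen with earlier results of these data known. Named pathway genes were those that passed, up to 4 per list and comparison, and others were added as examples after their values were seen. Alternatives were DESeq2 1.42.0, limma-voom (limma 3.58.1), other scalings and filters, a replicate block and leaving out each library. Some genes of the lists are not reported here by name and stay in the counts and medians.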

Additional observations from a re-analysis of the deposited data

How the results depend on the processing

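In each of the 3 comparisons 0 of the 6 genes were called under all alternatives run, including an adjusted p under 0.1. Vgf stayed higher in KDM5Ci than vehicle in 18 of 18 alternatives, with log2 values of 0.14 to 0.31 and adjusted p of 0.191 to 0.735. The count of genes called for vehicle against NS was 2 and became 15 at an adjusted p under 0.1, 11 on total counts without TMM, 11 without a filter, 17 with only the 2 groups compared, 81 with DESeq2, and 2 to 17 when a library was left out, the most without KDM5Ci replicate 3. For KDM5Ci against vehicle 380 became 593 at 0.1, and 203 to 429 with a library left out, the fewest without vehicle replicate 2. For KDM5Ci against NS 601 became 1017 at 0.1, and 269 to 747 with a library left out, the fewest without NS replicate 3. Pathway genes called numbered 3 for KDM5Ci against vehicle, 6 at 0.1 and 0 to 4 with a library left out. They numbered 3 for KDM5Ci against NS, 5 at 0.1, 1 without TMM, 1 with only the 2 groups compared and 0 to 5 with a library left out. The cause of these shifts was not tested.

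Directions turned for some of the values that had not passed the test. For Ntrk2, KDM5Ci against vehicle became 0.0056 with median-ratio size factors and with DESeq2, 2e-04 without a filter, 0.0012 with at least 1 CPM in 3 libraries, and -0.0414 to 0.0533 with a library left out. Ntrk3 for KDM5Ci against NS became -0.0047 without TMM and -0.0319 to 0.038 with a library left out. Leaving out a library gave ranges for vehicle against NS of -0.123 to 0.049 for Bdnf, -0.0177 to 0.059 for Ntrk3, -0.3691 to 0.0269 for Ngfr and -0.1257 to 0.0416 for Vgf, and -0.0508 to 0.0145 for Ntrk3 between KDM5Ci and vehicle. With a library left out, KDM5Ci against vehicle ranged from -0.2627 to -0.0254 for Bdnf, -0.4579 to -0.1059 for Ntf3 and -0.2995 to -0.1564 for Ngfr, and KDM5Ci against NS from -0.3165 to -0.0821, -0.6016 to -0.2785 and -0.5877 to -0.1935. Ntf3 was not tested under the filter of at least 1 CPM in 3 libraries.

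It was not settled whether replicate numbers pair the samples. Over 9 same-numbered pairs the correlation of deviations ran from -0.14 to 0.24, 3 pairs were over 0.1, and 4 of 9 libraries matched best with their own number. Between vehicle and KDM5Ci the same-numbered pairs were at 0.24, 0.08 and 0.18. The differently numbered pairs of these groups ran from -0.25 to 0.09. With the replicate number as a block, 2, 363 and 708 genes were called in the 3 comparisons in the order above, 0 of the 6 genes in each, and 0, 4 and 3 pathway genes. Depth limits Ntf3 and Ngfr, at 19 to 42.7 counts, more than the other 4 genes.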
